A study of Mus musculus with 6 samples.

Results

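The genes of 9 Toll-like receptors, Tlr1 to Tlr9, and of Cd14, a protein that hands bacterial lipids to several of them, were followed in colon RNA. The rows were taken by gene symbol, and all 10 were found among the 18477 genes of the expression table. Each of the 10 also passed the filter on low counts that left 14579 genes for testing. Bulk colon tissue of male C57BL/6 mice, bought at 6 to 8 weeks of age, was sequenced from 3 mice of the DSS group and 3 mice of the DSS+BV group. Mice of both groups drank 2% dextran sodium sulfate (DSS), a compound that injures the colon lining, from day 8 to day 14. The DSS group was gavaged daily with PBS for 14 days, and the DSS+BV group received live Bacteroides vulgatus, a Gram-negative gut bacterium, in anaerobic PBS on the same days. Because DSS was given to both groups, the libraries compare colitis with and without the bacterium, and mice without DSS were not analysed here.

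Toll-like receptors are membrane proteins that bind molecules common to microbes and start inflammatory signalling. At the cell surface, Tlr2 pairs with Tlr1 or Tlr6 to bind bacterial lipopeptides, Tlr4 binds lipopolysaccharide with the help of Ly96 and Cd14, and Tlr5 binds flagellin. In endosomes, Tlr3 binds double-stranded RNA, Tlr7 and Tlr8 bind single-stranded RNA, and Tlr9 binds DNA with unmethylated CpG. In the gut these receptors are made by macrophages, dendritic cells, B cells and, for some of them, the epithelium.

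The libraries held between 15293276 and 17254343 expected counts, that is, reads assigned to genes with shared reads split between them. Levels below are CPM, the count scaled to a common library size with TMM factors. Libraries of 1 group were not alike in the RNA of cell type markers. Summed over 7 B cell marker genes, the level was 150.5, 15.1 and 242 CPM in the DSS mice, in order of replicate, and 231.5, 7.84 and 9.99 CPM in the DSS+BV mice, so DSS 2 and DSS+BV 1 each stood apart from the other mice of its group. Colon epithelial markers were present in every library except that Hoxb13, a gene of the distal colon, was at 0 in DSS+BV 3. Its level was 211, 36.4 and 125 CPM in the DSS mice and 248 and 112 CPM in DSS+BV 1 and 2. Since these are bulk samples, fewer cells of a type and less RNA per cell cannot be told apart.

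Tlr1 and Tlr6 lie next to each other on chromosome 5 and share stretches of sequence, which bears on how their reads were counted. In GRCm38.p6, Tlr1 spans chr5:64924680-64933600 and Tlr6 spans chr5:64953092-64970942, both on the minus strand. Their transcripts in the GENCODE vM21 annotation shared 6 exact runs of at least 50 bases, 748 bases in all, and no other pair of the 9 receptors shared a run of that length. The longest run, of 229 bases, lies in a coding exon of each gene, at chr5:64925537-64925765 in Tlr1 and chr5:64953828-64954056 in Tlr6. It is printed from Tlr1 in capitals, with the 15 bases on either side in lower case (chr5:64925522-64925780, minus strand).
Tlr1: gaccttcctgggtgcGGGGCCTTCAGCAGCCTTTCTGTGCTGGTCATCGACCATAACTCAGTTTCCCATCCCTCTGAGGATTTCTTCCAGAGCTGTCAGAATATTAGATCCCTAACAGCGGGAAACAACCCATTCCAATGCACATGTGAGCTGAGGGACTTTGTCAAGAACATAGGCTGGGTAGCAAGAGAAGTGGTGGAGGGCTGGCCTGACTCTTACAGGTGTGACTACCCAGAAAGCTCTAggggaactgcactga
Counted from the 5′ end of this stretch, Tlr6 (chr5:64953813-64954071) differed by C15T and G245A, with the base of Tlr1 given first. A read pair that lies wholly inside the run cannot be assigned to either gene by sequence alone. The expected counts of Tlr1 and Tlr6 were fractional in all 6 libraries, and their sum was a whole number in each, for example 1672.44 and 74.56 summing to 1747 in DSS 1. Tlr6 took 4.27%, 3.63% and 6.12% of the summed count in the DSS mice and 2.91%, 1.53% and 1.60% in the DSS+BV mice. Tlr6 values are therefore uncertain. Tlr1 had at least 1477.42 counts in each library, so the split moves its values little. Of the other members, 7 had whole counts and Tlr7 had fractional ones, for which no partner gene was found.

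RefSeq promoters, from 250 bases before to 50 bases after a start site on GRCm38.p6, were found for 7 of the 10 genes. They were searched on both strands for 4 motifs of factors active in immune cells, chosen after the expression values had been seen. The motifs were the consensus of the NF-kappaB site, the interferon-stimulated response element, GAGGAAG for PU.1 and TGACTCA for AP-1. These genes had 9 promoters in all, of which 4 held a match to these letters. The windows of Tlr2, Tlr5 and Tlr8 and a second window of Tlr1 and of Tlr6 held no such match. Windows of Tlr1, Tlr3 and Tlr9 are shown as examples that hold a match, so they do not stand for the rest. Capitals mark the motifs found. The Tlr1 promoter shown is at chr5:64933509-64933808 on the minus strand, that of Tlr3 at chr8:45410331-45410630 on the minus strand and that of Tlr9 at chr9:106222348-106222647 on the plus strand.
Tlr1: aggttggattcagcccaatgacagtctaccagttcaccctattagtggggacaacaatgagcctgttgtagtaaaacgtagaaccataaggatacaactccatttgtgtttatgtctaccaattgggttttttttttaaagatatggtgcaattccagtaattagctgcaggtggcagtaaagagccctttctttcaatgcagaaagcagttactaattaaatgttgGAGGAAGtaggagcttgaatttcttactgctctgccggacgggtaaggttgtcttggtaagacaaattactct
Tlr3: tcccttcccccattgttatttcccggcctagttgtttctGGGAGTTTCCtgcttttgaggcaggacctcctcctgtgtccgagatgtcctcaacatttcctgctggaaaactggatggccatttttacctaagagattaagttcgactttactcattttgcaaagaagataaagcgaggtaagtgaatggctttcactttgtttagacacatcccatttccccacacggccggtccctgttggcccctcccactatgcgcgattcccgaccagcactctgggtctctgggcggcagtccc
Tlr9: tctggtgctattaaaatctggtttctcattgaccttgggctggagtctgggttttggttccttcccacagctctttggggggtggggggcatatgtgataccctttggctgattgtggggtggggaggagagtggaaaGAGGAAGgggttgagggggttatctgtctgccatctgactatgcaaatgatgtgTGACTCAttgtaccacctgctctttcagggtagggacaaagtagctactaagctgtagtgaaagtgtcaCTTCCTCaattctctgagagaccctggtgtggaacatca
The Tlr1 window held the PU.1 letters 23 bases before the start site. The Tlr9 window held them 112 bases before the start and, on the other strand, 11 bases after it, and it held the AP-1 letters 58 bases before the start. The Tlr3 window held the NF-kappaB letters 211 bases before the start. The interferon-stimulated response element was matched in a Tlr6 promoter, which is not shown. Among 32851 promoters of this length, 13.6% held the PU.1 letters, 5.20% those of AP-1, 3.44% those of the interferon-stimulated response element and 0.411% those of NF-kappaB. A match describes letters in a window and is not evidence that a factor binds there.

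Divided by exon length, the mean level over both groups was highest for Cd14 and Tlr1 and lowest for Tlr6 and Tlr9. Over all 6 libraries, Cd14 averaged 42.4 ± 20.8 CPM per kilobase (mean ± SD, n = 6) and Tlr1 35.4 ± 7.46. Cd14 was the highest of the 10 in each DSS mouse, whereas Tlr1 was the highest in each DSS+BV mouse. Tlr2 (12.6 ± 5.05), Tlr3 (12.0 ± 1.70) and Tlr4 (10.1 ± 2.67) formed a middle group whose order did not exceed the spread between mice, and Tlr4 moved to the front of it when the longest coding transcript was used as the length. Tlr7 (3.06 ± 1.38), Tlr8 (2.81 ± 1.46) and Tlr5 (2.35 ± 1.83) also could not be ordered. Tlr9 averaged 1.44 ± 0.981 and Tlr6 0.987 ± 0.418 CPM per kilobase. The order at the low end changed between mice, and Tlr5 was the lowest of the 10 in DSS 1 (0.849) and DSS 3 (0.712). Surface receptors made up 71.4% to 76.6% of the summed receptor level per kilobase in the DSS mice and 74.0% to 80.5% in the DSS+BV mice, so the ranges overlapped.

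**Figure D1:**
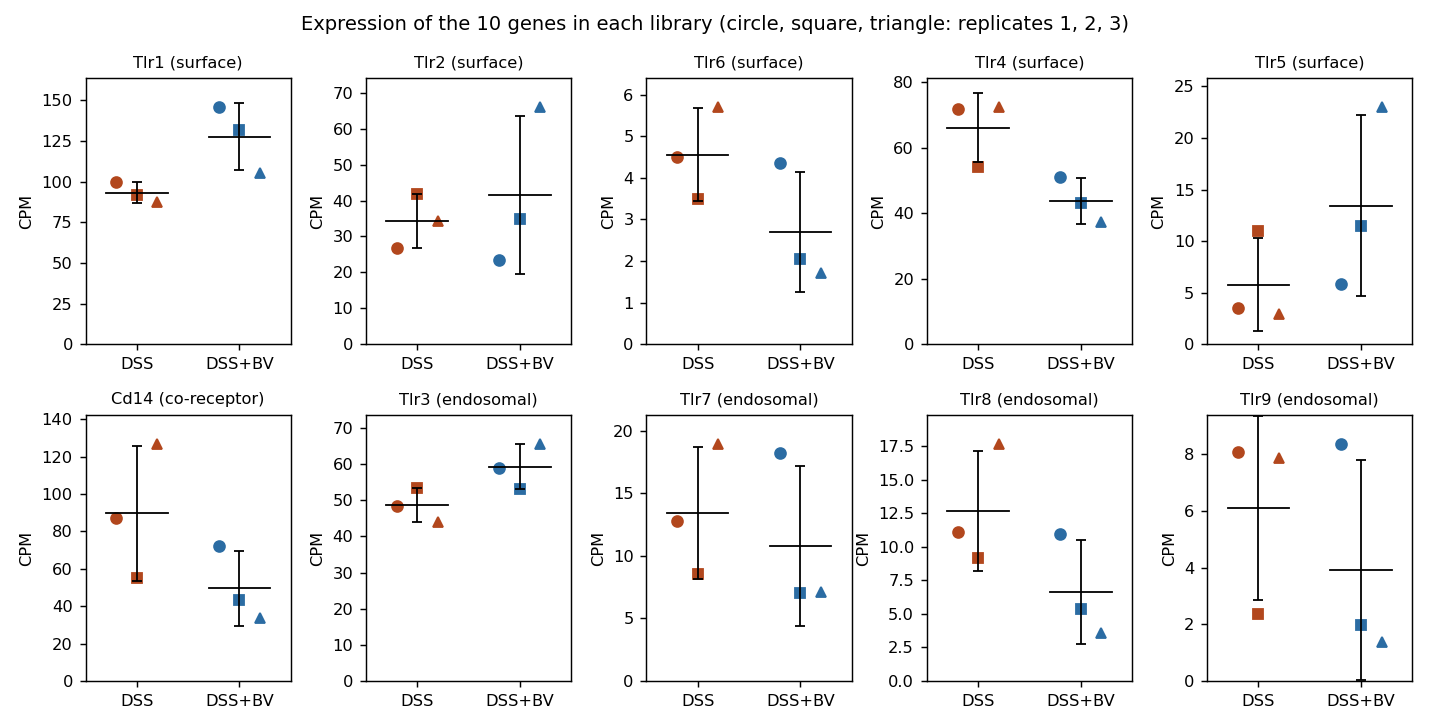
Level of each gene in CPM (vertical axis, from 0, scaled per panel) in the 3 DSS and 3 DSS+BV mice, with replicates 1, 2 and 3 as circles, squares and triangles and the mean ± SD as lines. The groups are fully separate for Tlr1, which was higher in each DSS+BV mouse, and for Tlr4, which was lower, and they overlap for the other 8 genes.

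None of the 10 genes passed the test between groups. A gene was called when its adjusted p in edgeR's quasi-likelihood test, over all tested genes, was under 0.05 and its log2 fold change was over 1 in size. These calls took 0.0892% of the 14579 genes (13 genes, each lower in DSS+BV). DESeq2 also called 0 of the 10, although it called 2.01% of 16152 genes (1.73% lower, 0.279% higher in DSS+BV). Of the 10 fold changes, 6 were below 0, as were 51.5% of those of all tested genes. At an unadjusted p under 0.05, 2 of the 10 passed, against 12.5% of all tested genes (9.12% lower and 3.4% higher in DSS+BV). The groups did not overlap for 2 of the 10, against 17.6% of all tested genes, so neither share can be set apart from the background with so few genes. Residual variation was large, with a biological coefficient of variation of 32.1% across genes, and a p that misses the threshold does not show that the groups were alike.

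Tlr4, the lipopolysaccharide receptor (chr4:66827551-66846581, plus strand), was lower in each DSS+BV mouse. It stood at 71.9, 54.2 and 72.5 CPM in the DSS mice and at 51.0, 43.1 and 37.2 CPM in the DSS+BV mice. The groups did not overlap, though DSS 2 was close to DSS+BV 1. On the log2 scale, the fold change of DSS+BV against DSS was -0.60 ± 0.180 (SE), with an edgeR adjusted p of 0.329 and a DESeq2 adjusted p of 0.163. With any 1 library left out it lay between -0.71 and -0.49. Summed fibroblast and endothelial markers separated the groups in the same direction, whereas summed smooth muscle markers overlapped. The 6 fibroblast markers summed to 1899 to 2194 CPM in the DSS mice and 855 to 1266 CPM in the DSS+BV mice, and the 5 endothelial markers to 288 to 361 CPM and 188.5 to 258 CPM, with none at 0. All 11 had fold changes below 0, and 5 did not overlap, against 11.3% of all tested genes that were lower without overlap. edgeR called 0, while DESeq2 called 2 fibroblast markers, against 1.73% of its genes called lower. The 5 smooth muscle markers also had fold changes below 0, but the groups overlapped for each. Their sum was 2872 to 3592 CPM in the DSS mice and 1980 to 3224 CPM in the DSS+BV mice. On the neutrophil and macrophage lists given below, 8 of 10 and 2 of 14 markers were also lower without overlap, against the same 11.3%. The summed levels of both lists overlapped between groups. The part of stromal, neutrophil or macrophage content in the Tlr4 values was not tested.

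Cd14, which hands lipopolysaccharide to Tlr4, was at 87.2, 54.9 and 127 CPM in the DSS mice and at 71.9, 43.3 and 33.4 CPM in the DSS+BV mice. The groups overlapped because DSS 2 was below DSS+BV 1. Its log2 fold change was -0.86 ± 0.385 (edgeR adjusted p = 0.425), and it was -0.52 without DSS 3. Ly96, the subunit of the Tlr4 complex that holds the lipid, was at 4.19, 3.92 and 6.52 CPM in the DSS mice and 4.42, 3.31 and 2.21 CPM in the DSS+BV mice, which also overlapped (log2 fold change -0.56, edgeR adjusted p = 0.561). All 3 genes of this complex thus had fold changes below 0, and none passed the test.

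Tlr1, the partner of Tlr2 for triacylated lipopeptides, was higher in each DSS+BV mouse. Its level was 100.1, 91.8 and 87.5 CPM in the DSS mice and 146, 132 and 105.5 CPM in the DSS+BV mice. The DSS mice lay close together, and DSS+BV 3 was the nearest to them. Its log2 fold change was 0.45 ± 0.156 (edgeR adjusted p = 0.355, DESeq2 adjusted p = 0.190). With the counts of Tlr1 and Tlr6 summed as 1 gene, an alternative added after the shared reads were seen, it was 0.42.

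Tlr2 (chr3:83836272-83841824, minus strand), the common partner of Tlr1 and Tlr6, did not follow Tlr1. It was at 26.8, 41.9 and 34.4 CPM in the DSS mice and at 23.5, 34.9 and 66.1 CPM in the DSS+BV mice, with both the lowest and the highest value in the DSS+BV group. The log2 fold change of 0.27 ± 0.385 (edgeR adjusted p = 0.792) rested on DSS+BV 3, and without that library it was -0.23. Tlr6, the partner for diacylated lipopeptides, was at 4.49, 3.48 and 5.71 CPM in the DSS mice and 4.35, 2.04 and 1.71 CPM in the DSS+BV mice. DSS+BV 1 lay within the DSS range and the other DSS+BV mice lay below it. For Tlr6 the log2 fold change was -0.76 ± 0.431 (edgeR adjusted p = 0.513), opposite in sign to that of Tlr1, with the shared reads as stated above, and without DSS+BV 1 it was -1.27.

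Tlr5, the flagellin receptor (chr1:182954752-182976044, plus strand), had the largest fold change of the 10 and one of the widest spreads. It was at 3.47, 10.9 and 2.91 CPM in the DSS mice and at 5.87, 11.5 and 23.0 CPM in the DSS+BV mice. DSS 2 lay among the DSS+BV mice, and DSS+BV 3 was 7.90 times as high as DSS 3. The fitted log2 fold change was 1.22 ± 0.676 (edgeR adjusted p = 0.502), and it was 0.59 without DSS+BV 3 and 2.09 without DSS 2. A pair of epithelial genes, picked after their values were seen, ranked in a like way. Cdx2, an intestinal transcription factor, was at 42.2, 176 and 39.9 CPM in the DSS mice and 60.5, 192 and 327 CPM in the DSS+BV mice. Alpi, an alkaline phosphatase typical of the small intestine, was at 0.240, 64.2 and 3.20 CPM and at 1.65, 39.5 and 86.7 CPM. Other epithelial genes went both ways. Muc2, a mucin gene, was at 2339, 10170 and 4239 CPM in the DSS mice. In the DSS+BV mice it was at 6878, 8265 and 20700 CPM, highest where Tlr5 was highest. Sis, on the small intestine list, was also highest in DSS+BV 3, at 19.5 CPM. Fabp6, on the same list, was instead highest in DSS+BV 1, at 7.26 CPM, against 2.34 CPM in DSS+BV 3. Slc26a3, a chloride exchanger of the colon, was at 309, 498.5 and 515 CPM in the DSS mice and 685, 667 and 146 CPM in the DSS+BV mice, lowest where Tlr5 was highest. Aqp8, on the colon list, was also lowest in DSS+BV 3, at 71.1 CPM. Summed over 8 epithelial markers the level was 7328, 7786 and 8464 CPM in the DSS mice and 10560, 12550 and 9663 CPM in the DSS+BV mice, with none at 0. All DSS+BV mice were above the DSS mice, and DSS+BV 3 was the lowest of them. The part of epithelial content or of the sampled stretch of colon in the Tlr5 values was not tested.

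Among the endosomal receptors, Tlr3 (chr8:45395665-45411075, minus strand) was the steadiest gene of the 10 and the only endosomal one with a fold change above 0. It was at 48.4, 53.5 and 44.1 CPM in the DSS mice and at 59.0, 53.3 and 65.7 CPM in the DSS+BV mice. The groups met at DSS 2 and DSS+BV 2, which were nearly equal. The log2 fold change was 0.29 ± 0.140 (edgeR adjusted p = 0.456), and the highest library was 1.49 times the lowest.

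Tlr7 and Tlr8, neighbours on chromosome X (chrX:167303380-167330574 and chrX:167241123-167264329, minus strand), were both highest in DSS 3. Tlr7 was at 12.8, 8.52 and 19.0 CPM in the DSS mice and at 18.2, 7.01 and 7.14 CPM in the DSS+BV mice. DSS+BV 1 was close to the highest DSS mouse. The log2 fold change of -0.32 ± 0.474 (edgeR adjusted p = 0.805) became 0.02 without DSS 3 and -0.92 without DSS+BV 1. Tlr8 was at 11.1, 9.20 and 17.7 CPM in the DSS mice and at 10.9, 5.35 and 3.54 CPM in the DSS+BV mice, again with DSS+BV 1 inside the DSS range. Its log2 fold change was -0.94 ± 0.467 (edgeR adjusted p = 0.462), between -1.50 and -0.62 with 1 library left out.

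Tlr9, the receptor for CpG DNA (chr9:106222598-106226876, plus strand), had a high and a low set of libraries that crossed the groups. It was at 8.08, 2.36 and 7.86 CPM in the DSS mice and at 8.38, 1.98 and 1.39 CPM in the DSS+BV mice. DSS 1, DSS 3 and DSS+BV 1 were high and the other 3 libraries low. The same libraries were the highest for Cd14, Tlr6, Tlr7 and Tlr8, so the split was not particular to Tlr9. They were also the highest for the summed dendritic cell markers given below and the 14 summed macrophage and monocyte markers. The latter were at 1467, 960 and 2101 CPM in the DSS mice and 1485, 665 and 638 CPM in the DSS+BV mice. The summed B cell markers given above split the same libraries, and so did Cd79a, a subunit of the B cell receptor, at 39.1, 4.48 and 66.8 CPM in the DSS mice and 53.0, 1.91 and 2.66 CPM in the DSS+BV mice. All 7 B cell markers were above 0 in every library, and all 7 had log2 fold changes below 0, with 0 called by edgeR and by DESeq2. The log2 fold change of Tlr9 was -0.64 ± 0.777 (edgeR adjusted p = 0.757), -1.84 without DSS+BV 1 and -0.24 without DSS+BV 3. The part of B cell content in the Tlr9 values was not tested.

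**Figure D2:**
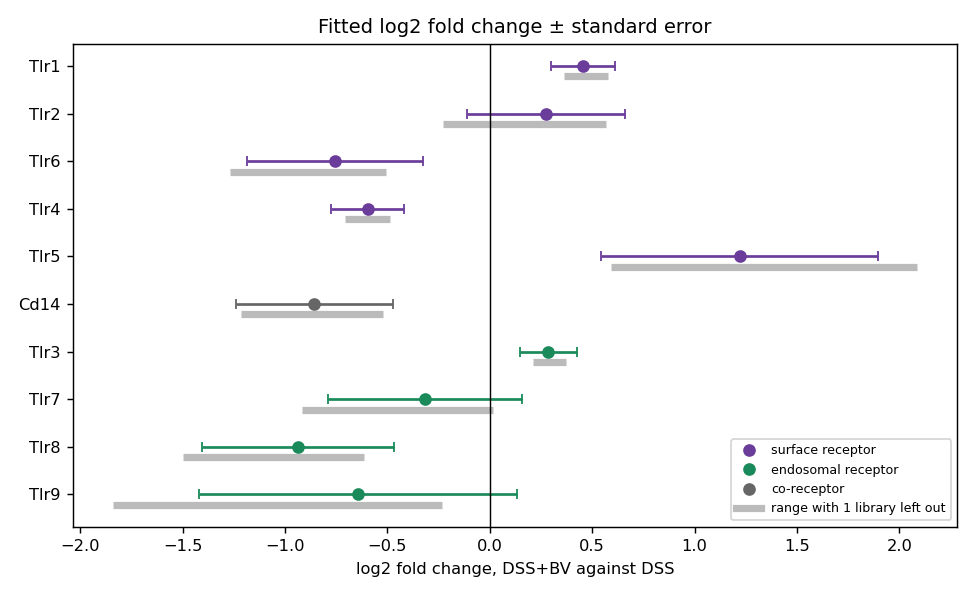
Fitted log2 fold change of DSS+BV against DSS (horizontal axis) for each gene, as a point with its standard error, coloured by receptor class. The grey bar below each point spans the values with 1 library left out, and for Tlr2 and Tlr7 it crosses 0.

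Surface and endosomal receptors did not separate as classes. The median log2 fold change was 0.27 for the 5 surface receptors (3 above 0, 2 below) and -0.48 for the 4 endosomal receptors (1 above 0, 3 below), beside -0.01 for all tested genes. The difference of the medians, 0.75, was -0.07 without DSS+BV 3 and 1.57 without DSS+BV 1. The surface median was -0.23 without DSS+BV 3, and the endosomal median was -1.21 without DSS+BV 1. Library by library, the mean log2 CPM of the surface receptors exceeded that of the endosomal receptors by 0.37, 1.25 and 0.16 in the DSS mice and by 0.28, 1.43 and 1.84 in the DSS+BV mice. The groups overlapped. The endosomal mean varied more between mice of a group (SD 0.60 on the log2 scale) than the surface mean (SD 0.14). This does not make single surface receptors steadier, because opposite moves cancel in a mean. In DSS+BV 3, after centring each gene on its mean log2 CPM, Tlr5 and Tlr2 were at 1.60 and 0.88. Tlr4 and Tlr6 were at -0.52 and -0.92. The highest library was 7.90 times the lowest for Tlr5, the widest of the 10, and 1.49 times for the endosomal Tlr3, the narrowest.

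Ratios between members, which do not depend on library scaling, were also compared. The groups did not overlap for 8 of the 45 ratios, against 18.1% of the ratios between any 2 tested genes above 0 in every library. Of these 8 ratios, 5 included Tlr1 or Tlr4, the genes whose own groups did not overlap. The widest gap was between Tlr1 and Tlr4. There were 1.39, 1.69 and 1.21 Tlr1 reads per Tlr4 read in the DSS mice and 2.86, 3.06 and 2.83 in the DSS+BV mice, which averaged 1.43 ± 0.246 against 2.92 ± 0.120 (SD, n = 3). The highest DSS mouse was well below the lowest DSS+BV mouse. The ratio was picked as the widest of 45 and was not tested. Its groups could not overlap, because Tlr1 alone was higher and Tlr4 alone lower in each DSS+BV mouse. Tlr7 reads per Tlr8 read numbered 1.16, 0.926 and 1.07 in the DSS mice and 1.66, 1.31 and 2.02 in the DSS+BV mice, again without overlap. Tlr7 reads per Cd14 read numbered 0.147, 0.155 and 0.150 in the DSS mice and 0.253, 0.162 and 0.214 in the DSS+BV mice, with DSS+BV 2 only slightly above the DSS mice.

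**Figure D3:**
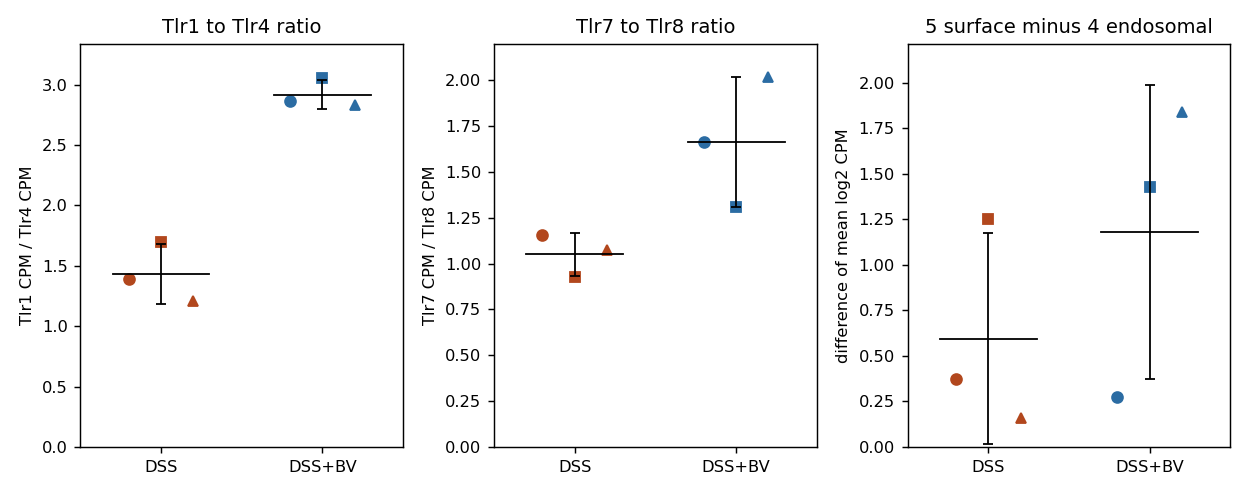
Ratio of Tlr1 to Tlr4 and of Tlr7 to Tlr8 (CPM over CPM, axis from 0), and the mean log2 CPM of the 5 surface minus that of the 4 endosomal receptors, in each mouse with the mean ± SD. Both ratios are higher in each DSS+BV mouse, while the class difference overlaps between groups.

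Patterns across libraries did not follow the surface and endosomal classes. Likeness was measured as the root mean square difference of log2 CPM over the 6 libraries after each gene was centred on its own mean, with 14081 candidate genes of at least 1 CPM on average. Cd14 and Tlr6 were nearest to each other (0.176), and Tlr6 was also the nearest member to Tlr8 (0.179), Tlr7 (0.269) and Tlr4 (0.313). Tlr1 and Tlr3 were nearest to each other (0.236). Few members were close against the whole table. Among all candidates Cd14 ranked 72 for Tlr6 and Tlr6 ranked 32 for Tlr8 and 227 for Tlr7, whereas Tlr6 ranked 2250 for Tlr4, Tlr3 ranked 1678 for Tlr1 and Tlr1 ranked 4088 for Tlr3. These distances describe 6 libraries and carry no test.

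Of the 3 genes with the most similar patterns, 1 was on the macrophage list for Cd14 and 1 on the dendritic cell list for Tlr7. For Cd14 they were Tox2 (0.068), the adhesion molecule Icam1 (0.083) and C1qa (0.084), a complement subunit made by tissue macrophages. For Tlr7 they were Chst10 (0.063), Itgax (0.093), which encodes CD11c of dendritic cells and macrophages, and the complement receptor C3ar1 (0.102). Tlr6 was nearest to Cmklr1, Cmtm7 and Sh3bp5, Tlr8 to Stx11, Myo5a and Pik3r5, and Tlr9 to Parvg, Abcg8 and Wdfy4. Tlr4 had other neighbours, namely Tnfrsf22 (0.041), the laminin chain Lama5 (0.056) and Shank3 (0.059). Tlr5 was nearest to Slc39a8 (0.147), a metal ion transporter, Mmp7 (0.148), an epithelial protease, and Aqp11 (0.174). Tlr1 was nearest to Zfp948, Rcor1 and Bicdl2, Tlr2 to Selenom, Trpa1 and Slc2a9, and Tlr3 to Mtmr4, Atp6ap2 and Zbtb6.

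**Figure D4:**
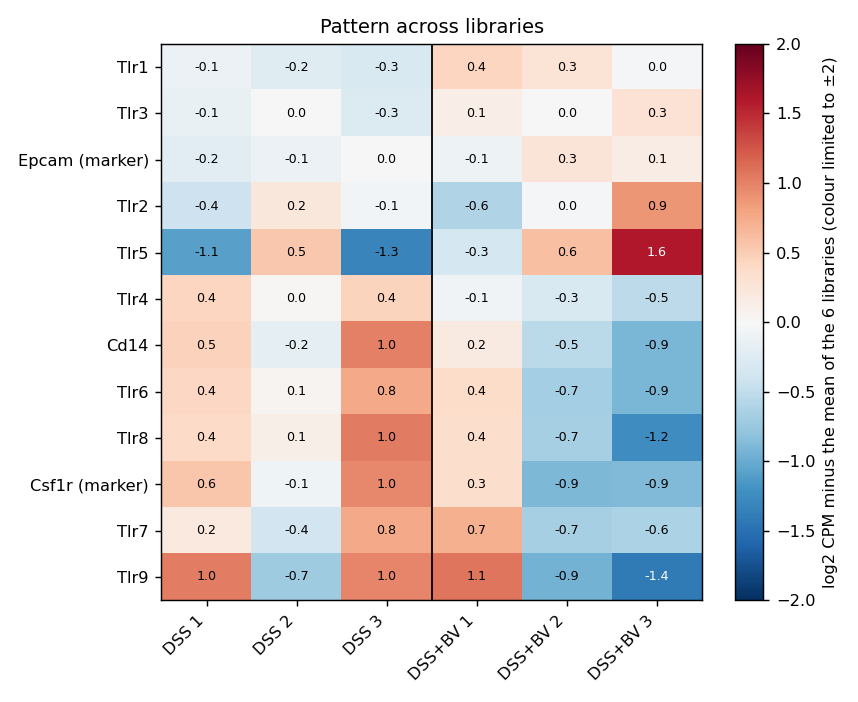
Log2 CPM of the 10 genes and 2 marker genes (rows) in each library (columns), with the mean of the 6 libraries subtracted and the colour limited to ±2. Cd14, Tlr4, Tlr6, Tlr7, Tlr8, Tlr9 and Csf1r are all above their means in DSS 3 and below them in DSS+BV 2 and 3. Of these, Cd14, Tlr7, Tlr9 and Csf1r are above their means in DSS 1, DSS 3 and DSS+BV 1 and below them in the others.

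Csf1r, the growth factor receptor of macrophages, was then used as a reference, a choice made after its values had been seen. It was at 120, 76.8 and 160 CPM in the DSS mice and at 104, 43.6 and 44.1 CPM in the DSS+BV mice. Per Csf1r read there were 0.037, 0.045 and 0.036 Tlr6 reads in the DSS mice and 0.042, 0.047 and 0.039 in the DSS+BV mice. The highest library was 1.31 times the lowest, although Tlr6 itself varied 3.34 times between libraries. This was the most even of the 10 ratios to Csf1r, with the counts of Tlr6 uncertain as stated above. Cd14 reads per Csf1r read numbered 0.726, 0.715 and 0.795 in the DSS mice and 0.692, 0.991 and 0.759 in the DSS+BV mice. For Tlr8 the ratio varied 1.53 times between libraries. These are descriptions of genes set beside a reference picked for its pattern, and none was tested. The groups did not overlap for 2 of the 10 ratios to Csf1r, those of Tlr1 and Tlr7, against 7.86% of 14507 tested genes (7.02% higher in DSS+BV). Tlr1 had 0.834, 1.196 and 0.548 reads per Csf1r read in the DSS mice and 1.41, 3.02 and 2.39 in the DSS+BV mice. Tlr7 had 0.107, 0.111 and 0.119 reads per Csf1r read in the DSS mice and 0.175, 0.161 and 0.162 in the DSS+BV mice. Both ratios were higher in each DSS+BV mouse. Over Epcam, an epithelial adhesion molecule, Tlr4 was lower in each DSS+BV mouse, and the other 9 genes overlapped between groups.

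The macrophage and monocyte markers were counted as a list. Of 14 markers, 13 had log2 fold changes below 0, with a median of -0.88. edgeR called 0 of them and DESeq2 called 1, the mannose receptor gene Mrc1 (log2 fold change -1.33, DESeq2 adjusted p = 0.0317), against 2.01% of all genes it tested. Their summed level ranged from 960 to 2101 CPM in the DSS mice and from 638 to 1485 CPM in the DSS+BV mice, and none was at 0 in any library. The dendritic cell list (9 markers) was at 94.1, 47.8 and 126 CPM in the DSS mice and 99.7, 45.8 and 58.3 CPM in the DSS+BV mice, with none at 0. The part of macrophage and dendritic cell content in the levels of Cd14, Tlr4, Tlr6, Tlr7 and Tlr8 was not tested. Of the neutrophil markers, all 10 tested had fold changes below 0. The groups of 8 did not overlap, against 11.3% of all tested genes that were lower without overlap. edgeR called 6 lower in DSS+BV, against 0.0892% of all tested genes. Of these calls, 0 were made under the replicate block and 0 to 3 with 1 library left out (3 without DSS+BV 1, 1 without DSS 2). S100a8, on the neutrophil list, was at 46.4, 30.4 and 39.1 CPM in the DSS mice and 1.85, 1.47 and 2.09 CPM in the DSS+BV mice. The sum of the list was 217 to 1062 CPM in the DSS mice and 32.2 to 328 CPM in the DSS+BV mice, and Ly6g, whose groups overlapped, made up 76.1 to 854.5 and 19.1 to 303 CPM of it. Ngp was at 0 in DSS+BV 1 and 2, and Camp, Elane and Mpo were too low to be tested.

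Beyond the 10 genes, 64 other genes of the pathway were listed by role, of which 63 were tested and Ifnb1, the interferon beta gene, was at 0 in every library. None was called by edgeR, and 43 had log2 fold changes below 0, with a median of -0.30. The groups did not overlap for 11 genes that were lower in each DSS+BV mouse and 3 that were higher, against 11.3% and 6.37% of all tested genes. DESeq2 called 4 of the 63, against 2.01% of all genes it tested. All 4 were lower in DSS+BV, namely Cxcl2, Il6, Cxcl1 and Cd36. Without the 12 target genes, the median was -0.17. Of the 52 genes left, 4 were lower and 3 higher without overlap, against the same 11.3% and 6.37%.

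The other Toll-like receptors of the mouse, Tlr11, Tlr12 and Tlr13, had log2 fold changes of -0.43, -0.40 and -0.94, and their groups overlapped. Tlr13, an endosomal receptor for bacterial ribosomal RNA, was at 21.4, 14.4 and 33.4 CPM in the DSS mice and at 20.9, 7.13 and 8.09 CPM in the DSS+BV mice (edgeR adjusted p = 0.492), with DSS+BV 1 again inside the DSS range. Unc93b1, which carries the endosomal receptors out of the endoplasmic reticulum, was at 104, 61.1 and 129 CPM in the DSS mice and 104, 58.3 and 76.8 CPM in the DSS+BV mice (log2 fold change -0.30, edgeR adjusted p = 0.726). Its groups overlapped over most of their range.

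Among ligand binding partners, Cd36, a scavenger receptor that assists Tlr2 and Tlr6, was at 39.5, 42.7 and 69.9 CPM in the DSS mice and at 30.0, 24.7 and 20.1 CPM in the DSS+BV mice. It was lower in each DSS+BV mouse, with a log2 fold change of -1.02 ± 0.270 (edgeR adjusted p = 0.287, DESeq2 adjusted p = 0.0471). Of the adaptors, Myd88, which serves all of these receptors except Tlr3, was at 67.5, 46.8 and 70.9 CPM in the DSS mice and 52.8, 44.7 and 49.4 CPM in the DSS+BV mice (log2 fold change -0.33, edgeR adjusted p = 0.504), with DSS 2 among the DSS+BV mice. Ticam1, the adaptor of Tlr3 that Tlr4 also uses, was at 31.3, 38.2 and 35.6 CPM in the DSS mice and 38.3, 42.8 and 43.4 CPM in the DSS+BV mice (log2 fold change 0.24, edgeR adjusted p = 0.511). Its groups did not overlap, by a very narrow margin.

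Of the 17 kinases and ubiquitin ligases, 13 had fold changes above 0 and 4 below, and the median on the log2 scale was 0.03. Chuk, a kinase that activates NF-kappaB, was at 82.5, 93.2 and 86.0 CPM in the DSS mice and 98.2, 122 and 112 CPM in the DSS+BV mice (log2 fold change 0.34 ± 0.132, edgeR adjusted p = 0.383). Traf3, a ubiquitin ligase of the interferon branch, was at 49.2, 47.2 and 43.6 CPM in the DSS mice and 54.4, 54.1 and 52.3 CPM in the DSS+BV mice (log2 fold change 0.20 ± 0.115, edgeR adjusted p = 0.514). Both were higher in each DSS+BV mouse by less than the fold threshold. Map3k8, a kinase upstream of ERK, had the largest fold change of this role and was lower in each DSS+BV mouse, at 8.14, 6.28 and 14.9 CPM in the DSS mice and 6.20, 3.31 and 3.03 CPM in the DSS+BV mice (log2 fold change -1.22 ± 0.439, edgeR adjusted p = 0.361). Of the 10 inhibitors, 7 had fold changes below 0.

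The target cytokines and chemokines had the lowest median fold change of any role. All 11 tested had log2 fold changes below 0, with a median of -1.48. The groups of 7 did not overlap, against 11.3% of all tested genes that were lower without overlap. Cxcl2, a neutrophil chemokine, was at 6.23, 10.3 and 10.8 CPM in the DSS mice and at 0.791, 0.956 and 0.316 CPM in the DSS+BV mice (log2 fold change -3.71 ± 0.467, edgeR adjusted p = 0.0833). Il6, Cxcl1 and Ccl3 were likewise lower in each DSS+BV mouse, with log2 fold changes of -2.71, -2.23 and -1.77 and edgeR adjusted p-values of 0.222, 0.337 and 0.340. The median of these targets lay further below 0 than that of either receptor class, and no test of the targets against the receptors was made.

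**Figure D5:**
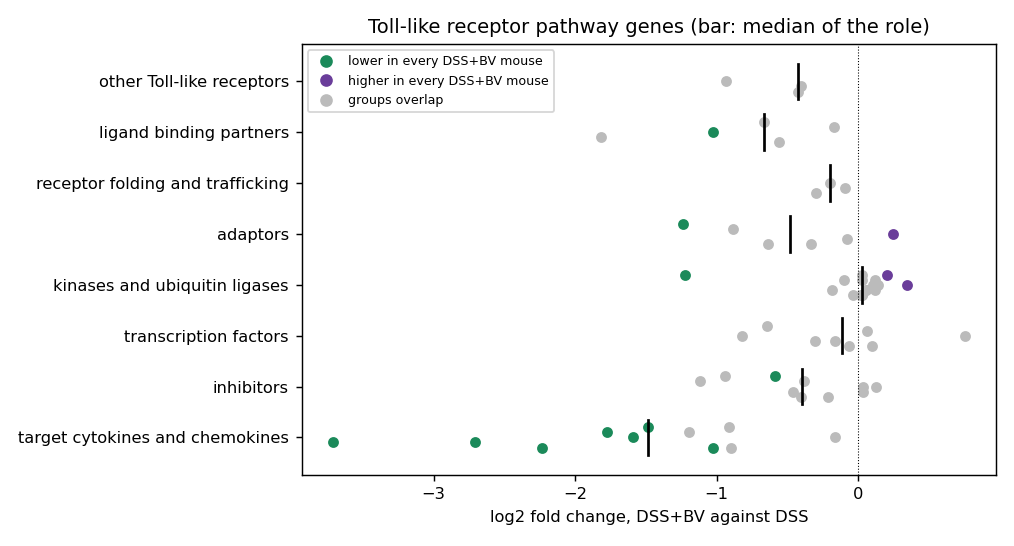
Fitted log2 fold change of DSS+BV against DSS (horizontal axis) for 63 other genes of the Toll-like receptor pathway, 1 point per gene in rows by role, with a bar at the median of each role. Points are coloured where the groups do not overlap, and the target cytokines and chemokines lie furthest to the left, with a median of -1.48.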

How the data were processed

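Colon RNA of 6 mice was sequenced on a DNBSEQ-T7 instrument. The deposited table holds expected counts per gene, which the authors made with RSEM 1.2.8 (the submitters' processing notes also name Bowtie2 2.2.5, HISAT2 2.1.0 and GRCm38.p6); the annotation version is not given in the sources used here. RSEM splits reads shared by similar genes, so values of such genes are estimates. Counts were rounded, filtered (filterByExpr, minimum count 10) and tested with edgeR 4.0.16 (quasi-likelihood, TMM) under R 4.3.3, and p-values were adjusted by Benjamini-Hochberg across the 14579 tested genes. DESeq2 1.42.0, other scaling factors, no filter and leaving out each library were alternatives. The test script was checked on simulated counts. Libraries of a group differed far beyond counting noise (chi-square per degree of freedom 43.7 to 124.9), so none was counted as a duplicate. Each library is 1 mouse; p-values measure the spread between these mice. Groups came from the labels. CPM used TMM-scaled library sizes; likeness used log2 CPM with a prior count of 2. Sequences came from RefSeq promoters and GENCODE vM21 transcripts, both on GRCm38. No sequence is printed for Tlr4, Tlr7 or Cd14.

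The members and the gene lists were chosen with earlier results of these data known. The text names all 10 members. Of the pathway list it names called genes, or otherwise in each direction up to 5 genes with the smallest p whose groups do not overlap, plus Ly96, Unc93b1, Myd88 and Ticam1. It names the 3 genes nearest in pattern to each member, and markers where a list is set beside a result. Tlr11 to Tlr13, Map3k8 and the reference gene Csf1r were named after their values were seen, as were the ratios. A gene of the B cell marker list is not reported here and was left out of its sums.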

Additional observations from a re-analysis of the deposited data

How the results depend on the processing

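The count of called members was 0 under every alternative run, and the 10 fold changes kept their direction under DESeq2, both other scalings, no filter and the replicate block. With 1 library left out, Tlr2 was -0.23 without DSS+BV 3 (range -0.23 to 0.56) and Tlr7 was 0.0151 without DSS 3 (range -0.92 to 0.0151), opposite in sign to the values with all libraries, and member adjusted p-values from edgeR ranged from 0.176 to 0.998. The surface median ranged from -0.23 to 0.45, the endosomal median from -1.21 to -0.16 and their difference from -0.0669 to 1.57. Genes called over the whole table numbered 13 with edgeR, 325 with DESeq2 (280 lower, 45 higher) and 0 to 7 with 1 library left out (7 without DSS+BV 1, of which 3 were lower and 4 higher, and 1 without DSS 2). Pathway genes called numbered 0 with edgeR and 4 with DESeq2. The cause of the difference between tools was not tested. Same-numbered mice did not deviate together in every pair (r = 0.27, 0.25 and -0.30 across genes), so the numbers were not taken as pairs. With the replicate number as a block, 0 genes were called over the whole table, and member adjusted p-values ranged from 0.429 to 0.852. Each fit with 1 library left out had 2 libraries in that group. Low counts limit Tlr6 and Tlr9, which had as few as 27.09 and 22 counts in a library.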
